A study of Mus musculus with 12 samples.

Results

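The immunoproteasome and PA28 genes were followed in resting and stimulated follicular (FO) B cells of the mouse. They are 5 genes, Psmb8, Psmb9, Psmb10, Psme1 and Psme2, chosen by symbol from the 22561 genes of the count table. Each symbol matched 1 row, and all 5 genes were among the 9431 genes with enough counts to be tested. Psmb5, Psmb6 and Psmb7, which encode the constitutive counterparts of Psmb8, Psmb9 and Psmb10, were used for reference.

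Splenic FO B cells of 10-week-old C57BL6 mice, sorted by B220hi, AA4.1-, CD23+ and CD21mid staining, were left unstimulated or were stimulated for 12 h with IFNα, with CpG or with CpG plus IFNα, with 3 samples in each of the 4 groups. CpG, a DNA oligonucleotide, activates Toll-like receptor 9 (TLR9). IFNα belongs to the type I interferons. IFNα was used at 0.1 μg/mL and CpG at 1 μg/mL. For the combined stimulus, the legends on these RNA samples differ, as 1 puts CpG at 1 μg/mL and another at 0.1 μg/mL. The study's methods give 1 μg/mL of CpG for its B cell stimulation assays. As the legends differ, the addition of IFNα and a lower CpG dose cannot be told apart. Whether the unstimulated cells spent 12 h in culture is not given in the sources used here, so in comparisons with that group stimulation and culture cannot be told apart. RNA was counted by bulk RNA barcoding, in which each molecule is tagged near its poly(A) tail with a unique molecular identifier (UMI).

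The proteasome is the protease complex of the cytosol and nucleus, in which a barrel-shaped 20S core holds the catalytic subunits and is opened by caps such as the 19S regulatory particle or PA28. In cells that respond to interferon, the inducible catalytic subunits LMP7, LMP2 and MECL-1 can be built into new cores in place of the constitutive ones, giving the immunoproteasome, and PA28, a ring made of α and β subunits, can cap the core. Both alter which peptides are cut for transport by TAP into the endoplasmic reticulum and loading on MHC class I molecules. Resting B cells carry a high level of immunoproteasome, as lymphoid cells do in general.

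Psmb9 and Psmb8 lie in the MHC on chromosome 17 (GRCm38), Psmb9 at 34181987–34187764 on the minus strand and Psmb8 at 34197721–34201454 on the plus strand. Between them lies Tap1, at 34187553–34197225 on the plus strand, which encodes a subunit of the TAP peptide transporter. The 5′ ends of Psmb9 and Tap1 overlap by 212 bases in the gene annotation, and their RefSeq start sites are 225 bases apart on opposite strands, so that 1 window of promoter sequence holds both start sites. Psme1 (chromosome 14, 55578123–55581529, plus strand) and Psme2 (chromosome 14, 55587441–55591113, minus strand) are also close to each other, whereas Psmb10 lies alone on chromosome 8 (105935735–105938444, minus strand). All 5 genes had a RefSeq promoter window, from 250 bases before to 50 bases after the start site. The 3 windows printed here (GRCm38.p6, from RefSeq) were picked because they hold the shared Psmb9 and Tap1 start region or a match to an interferon-related motif.

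In the Psmb9 window, chr17:34187281-34187580, minus strand, capitals mark the bases between the Psmb9 and Tap1 start sites.
Psmb9: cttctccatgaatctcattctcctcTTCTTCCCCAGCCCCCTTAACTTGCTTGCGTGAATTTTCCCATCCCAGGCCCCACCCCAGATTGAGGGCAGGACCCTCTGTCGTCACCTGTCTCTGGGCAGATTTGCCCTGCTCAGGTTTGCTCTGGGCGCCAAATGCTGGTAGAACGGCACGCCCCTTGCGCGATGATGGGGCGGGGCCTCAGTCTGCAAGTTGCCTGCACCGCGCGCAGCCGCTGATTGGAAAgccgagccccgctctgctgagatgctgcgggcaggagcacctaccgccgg
In the Psmb8 window, chr17:34197945-34198244, plus strand, capitals mark a match to TTCNNNGAA, the letters bound by STAT dimers (GAS), 97 bases before the start site.
Psmb8: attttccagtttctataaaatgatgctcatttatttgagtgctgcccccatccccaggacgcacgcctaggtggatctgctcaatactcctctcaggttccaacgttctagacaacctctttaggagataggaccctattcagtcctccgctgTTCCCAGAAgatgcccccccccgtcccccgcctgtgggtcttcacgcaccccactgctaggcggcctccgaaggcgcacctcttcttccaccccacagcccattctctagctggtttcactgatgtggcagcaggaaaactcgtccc
In the Psme1 window, chr14:55578244-55578543, plus strand, capitals mark a match on the opposite strand to the core of the interferon-stimulated response element (ISRE), a pair of GAAA repeats with 2 bases of any kind between them, 9 bases after the start site.
Psme1: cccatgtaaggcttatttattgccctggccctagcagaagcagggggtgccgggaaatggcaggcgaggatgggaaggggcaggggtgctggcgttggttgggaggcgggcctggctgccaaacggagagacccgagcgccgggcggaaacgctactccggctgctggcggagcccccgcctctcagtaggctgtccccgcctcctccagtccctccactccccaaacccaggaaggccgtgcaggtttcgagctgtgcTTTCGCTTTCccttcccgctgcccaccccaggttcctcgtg

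On either strand, the ISRE core was found in 3.44% and TTCNNNGAA in 8.30% of the 32851 promoter windows of this length, and an NF-kB site, spelled as GGGA, any base and TTTCC, in 0.411%. These 2 matches were the only ones among the 6 windows of the 5 genes (Psme2 has 2 windows), and no window of them held the NF-kB letters. A match describes these letters and is not evidence of binding. As only these exact letters were searched, a window without a match may still hold another form of such an element.

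Total counts ranged from 922450 to 1103064 UMIs in the unstimulated samples, from 1067324 to 1689570 with IFNα, from 1393018 to 1985810 with CpG and from 1884673 to 2923865 with CpG plus IFNα. Levels are given as CPM, the UMI counts scaled to a common library total by TMM. Such a level is relative to the other RNA of its library, so each rise or fall below is relative too. Changes in RNA per cell were not measured. As UMIs mark 3′ ends, they do not grow with transcript length, but genes can differ in how well they are captured. The sorted cell type was visible in all groups, with each of 9 B cell markers detected, yet the summed level of these markers was 10914–12485 CPM in unstimulated samples, 9765–10920 CPM with IFNα, 2413–2453 CPM with CpG and 2111–2160 CPM with CpG plus IFNα. Of the 9 T and NK cell markers listed 6 had a row in the count table, and of the 8 myeloid markers 7 did. The T and NK cell markers stayed at or below 3.64 CPM in sum, with Cd3g and Cd8a at 0 in all samples. The summed myeloid markers, of which Cst3 had the most counts, were 339–397 CPM in unstimulated samples, 442–549 CPM with IFNα, 83.9–103 CPM with CpG and 72.5–89.4 CPM with CpG plus IFNα. The sums for erythroid markers were 57.4–345, 15.3–336, 4.99–60.8 and 5.65–72.0 CPM in the same order of groups. Those for plasma cell markers were 255–380, 181–210, 186–205 and 200–271 CPM, in unstimulated samples mostly Irf4 and Xbp1 (188 and 101 CPM on average). Those for plasmacytoid dendritic cell markers were 35.3–36.4, 32.1–49.3, 2.85–4.30 and 2.57–5.17 CPM, with Siglech at 0 in all samples. In unstimulated and IFNα samples they were mostly Pacsin1 (31.5 and 33.7 CPM on average). Mitochondrial genes took 6.06–7.70% of counts in unstimulated samples, 5.91–8.52% with IFNα, 3.29–4.85% with CpG and 2.99–3.52% with both stimuli. The part of these shifts in the results below was not tested, and in bulk samples fewer cells of a type and less RNA per cell cannot be told apart.

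Psmb8 encodes LMP7 (β5i), the inducible chymotrypsin-like subunit. It stood at 420, 481 and 446 CPM in unstimulated samples 1 to 3, at 828, 551 and 850 CPM with IFNα, at 303, 270 and 350 CPM with CpG, and at 420, 414 and 477 CPM with CpG plus IFNα. The IFNα samples were the highest and the CpG samples the lowest, without overlap with any other group, whereas the unstimulated and the doubly stimulated samples overlapped. IFNα sample 2 was well below the other two of its group.

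Psmb9 encodes LMP2 (β1i), the inducible subunit that takes the place of the caspase-like β1. It stood at 123, 157 and 132 CPM in unstimulated samples, at 379, 313 and 356 CPM with IFNα, at 33.8, 44.2 and 43.9 CPM with CpG, and at 157, 170 and 187 CPM with CpG plus IFNα. Every CpG sample lay far below every unstimulated one, and the lowest doubly stimulated sample met the highest unstimulated one. The CpG values rest on 55, 62 and 88 UMIs, the smallest counts of any of the 5 genes.

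Psmb10 encodes MECL-1 (β2i), the inducible trypsin-like subunit. It stood at 135, 178 and 158 CPM in unstimulated samples, at 262, 199 and 237 CPM with IFNα, at 88.4, 80.5 and 92.4 CPM with CpG, and at 118, 117 and 140 CPM with CpG plus IFNα. The order of the groups was that of Psmb8, with the doubly stimulated samples between the CpG samples and most of the unstimulated ones.

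Psme1 encodes PA28α. It stood at 245, 257 and 243 CPM in unstimulated samples, at 694, 545 and 553 CPM with IFNα, at 376, 354 and 320 CPM with CpG, and at 599, 558 and 544 CPM with CpG plus IFNα. Unlike the catalytic subunits, it was lowest in the unstimulated cells, and the 2 groups that received IFNα overlapped at the top.

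Psme2 encodes PA28β, which forms the heteromeric ring with PA28α. It stood at 177, 229 and 234 CPM in unstimulated samples, at 571, 437 and 516 CPM with IFNα, at 774, 715 and 664 CPM with CpG, and at 1048, 1014 and 1031 CPM with CpG plus IFNα. The 4 groups did not overlap, and the order was unstimulated, IFNα, CpG and CpG plus IFNα.

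**Figure D1:**
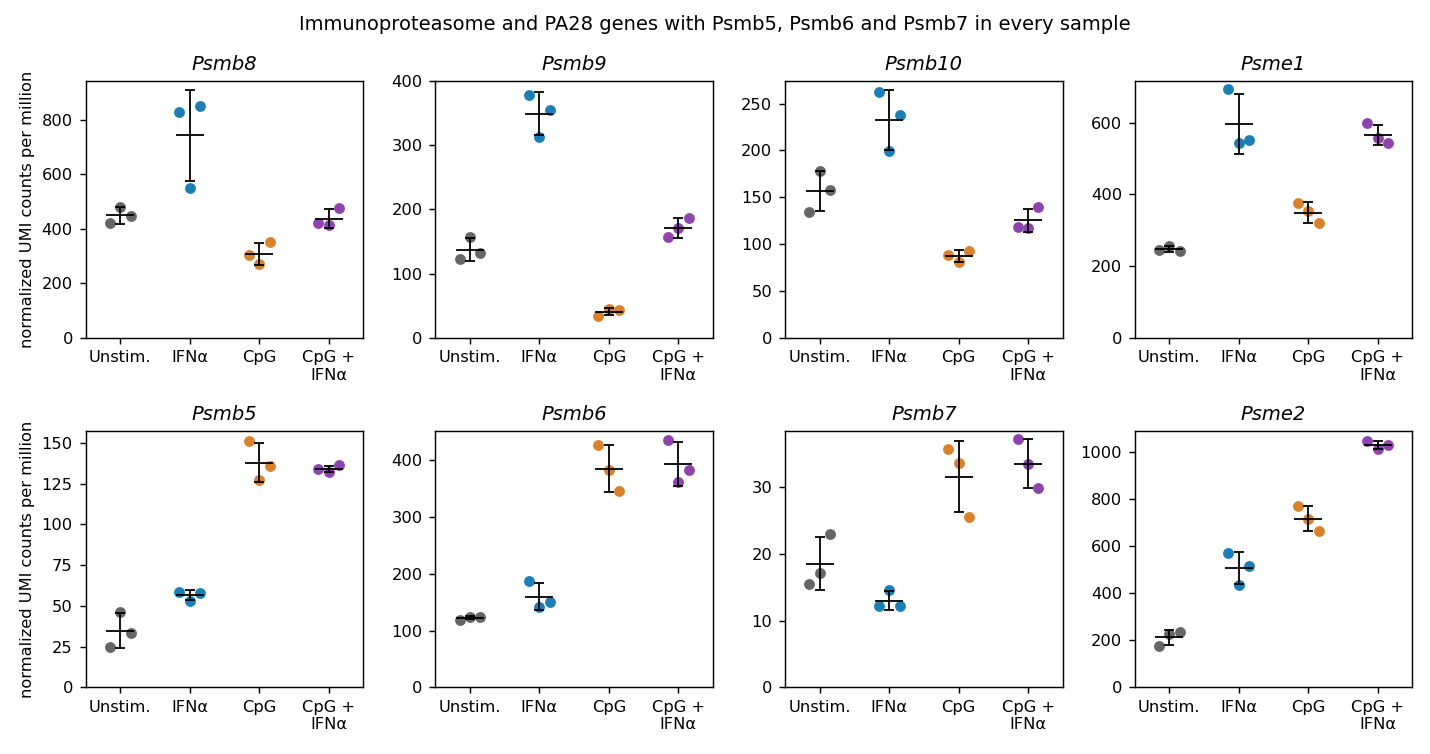
TMM-normalized levels in CPM (linear axis from 0) of the 5 genes and of Psmb5, Psmb6 and Psmb7 in each of the 12 samples; points are samples 1 to 3 from left to right, and black bars are the mean ± SD of 3. Psmb8, Psmb9 and Psmb10 are lowest with CpG, at 307.97, 40.6 and 87.1 CPM on average, whereas Psme2 and the 3 constitutive genes are higher with CpG than without it.

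IFNα alone raised all 5 genes. A gene was called differentially expressed (a DEG) at an adjusted p under 0.1 and over 2-fold, with edgeR's quasi-likelihood test and Benjamini-Hochberg adjustment over all genes tested. A legend of the study uses these thresholds, whereas its methods name a larger fold, a log2 fold change over 2. By the 2-fold rule 3 of the 5 were up-regulated, against 4.56% of the genes tested, and at an adjusted p under 0.1 alone all 5 were higher, against 12.4%. The 3 DEGs were Psmb9 (log2 fold change 1.35 ± 0.13, SE, adjusted p = 2.11e-10), Psme1 (1.26 ± 0.12, adjusted p = 1.72e-10) and Psme2 (1.25 ± 0.13, adjusted p = 1.18e-09). Psmb8 and Psmb10 rose by under 2-fold, by 1.65-fold (95% interval 1.37 to 1.99, edgeR adjusted p = 8.96e-05) and 1.48-fold (1.23 to 1.77, adjusted p = 0.00128). Of the constitutive genes, Psmb5 rose by 1.64-fold (edgeR adjusted p = 0.00467) and Psmb6 by 1.29-fold (adjusted p = 0.0544), while the fold for Psmb7 was 0.708 with an interval of 0.480 to 1.04. The summed level of the myeloid markers was higher with IFNα too, through Cst3 (343 CPM in unstimulated cells and 494 CPM with IFNα on average) and, at a low level, Adgre1 (1.67 and 9.24 CPM). By contrast, Lyz2, Csf1r, Itgam and S100a8 were at 0 in all IFNα samples, and Cd68 was lower (9.32 and 2.54 CPM, log2 fold change -1.70 ± 0.55, edgeR adjusted p = 0.0271). Of the 9 B cell markers, 3 were lower with IFNα at an adjusted p under 0.1 in edgeR, against 11.9% of all genes tested, namely Cr2 (-2.38 ± 0.17), Fcer2a (-2.34 ± 0.14) and Cd22 (-0.36 ± 0.12). Cr2 and Fcer2a encode CD21 and CD23, which were used for the sort. The part of these markers in the rise was not tested.

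CpG alone separated the 2 kinds of subunit. Psmb9 was a down-regulated DEG (log2 fold change -1.75 ± 0.15, edgeR adjusted p = 5.14e-12), against 25.5% of all genes tested, and Psme2 an up-regulated one (1.75 ± 0.12, adjusted p = 4.13e-14), against 20.1%. At an adjusted p under 0.1 alone, 3 genes were lower, against 38.4% of all genes tested, and 2 higher, against 36.5%, so that calls as such were common. The 3 lower genes were the inducible catalytic subunits: besides Psmb9, at 0.297 of the unstimulated level (95% interval 0.240 to 0.368), Psmb10 fell to 0.560 (0.461 to 0.679) and Psmb8 to 0.688 (0.569 to 0.833). Psme1 rose by 1.41-fold (1.19 to 1.66, edgeR adjusted p = 0.000406) and Psme2 by 3.37-fold (2.83 to 4.02), so that their intervals did not overlap. The constitutive counterparts all rose, Psmb5 by 4.03-fold, Psmb6 by 3.14-fold and Psmb7 by 1.67-fold, with edgeR adjusted p-values of 7.46e-13, 3.70e-13 and 0.00440. Summed B cell markers and the mitochondrial share were lower with CpG as well, and their part in these differences was not tested.

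IFNα added to CpG raised all 5 genes, while 0 of the 3 constitutive counterparts passed the test in edgeR, DESeq2 or limma voom, also at an unadjusted p under 0.05. At an adjusted p under 0.1 all 5 genes were higher than with CpG alone, against 6.54% of the genes tested. Psmb9 was the only DEG among them (log2 fold change 2.07 ± 0.14, edgeR adjusted p = 1.06e-13), against 2.95% of the genes tested. Its level was 4.20 times that with CpG alone (3.45 to 5.13). The other 4 rose by under 2-fold: Psme1 by 1.62-fold (1.39 to 1.89), Psme2 by 1.44-fold (1.23 to 1.68), Psmb10 by 1.43-fold (1.19 to 1.72) and Psmb8 by 1.41-fold (1.18 to 1.70). Their edgeR adjusted p-values were 1.40e-05, 0.00118, 0.00655 and 0.00881. The folds of Psmb5, Psmb6 and Psmb7 were 0.970 (0.819 to 1.15), 1.02 (0.873 to 1.20) and 1.07 (0.833 to 1.38). This comparison does not involve the unstimulated cells, but B cell markers differed between its groups. Their sums did not overlap, and 5 of the 9 were lower with IFNα at an adjusted p under 0.1 in edgeR (8.83% of all genes tested), 2 of them over 2-fold (2.01%), Fcer2a (log2 fold change -1.41 ± 0.29) and Cr2 (-1.28 ± 0.27), with a median of -0.52 over the 9. Their part in the rise of the 5 genes was not tested.

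**Figure D2:**
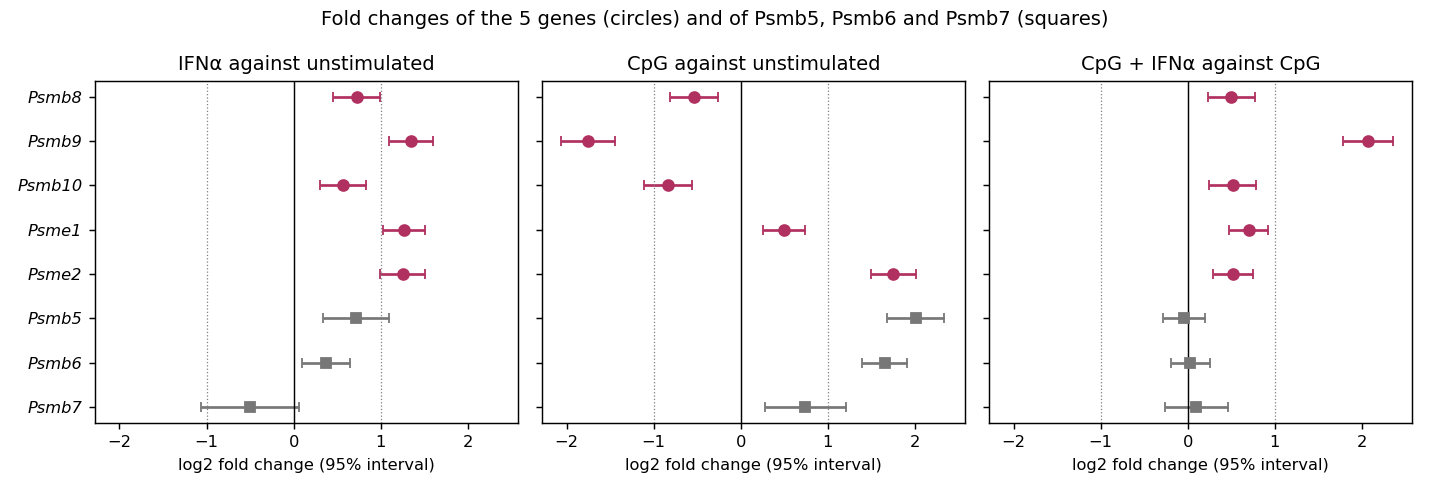
Log2 fold changes with 95% intervals from the edgeR fit to all 12 samples, for the 5 genes (circles) and Psmb5, Psmb6 and Psmb7 (squares) in 3 comparisons; dotted lines mark 2-fold. Psmb9 lies at 1.35, -1.75 and 2.07 from left to right, Psme2 at 1.25, 1.75 and 0.52, and the squares sit near 0 in the right panel with intervals that include it.

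With CpG plus IFNα, the doubly stimulated cells differed from unstimulated cells mainly in PA28. Psme2 (log2 fold change 2.28 ± 0.12, edgeR adjusted p = 4.43e-17) and Psme1 (1.19 ± 0.12, adjusted p = 6.25e-11) were up-regulated DEGs, 2 of 5 against 20.3% of the genes tested. Psmb9 was also higher (1.25-fold, 1.05 to 1.49, edgeR adjusted p = 0.0239), which made 3 of 5 against 37.6% at an adjusted p under 0.1 alone, and Psmb10 was lower (0.799-fold, 0.666 to 0.959, adjusted p = 0.0260), 1 of 5 against 38.8%. Psmb8 did not pass the test, and its fold of 0.974 had an interval of 0.808 to 1.17. The calls of Psmb9 and Psmb10 did not hold under every setting. With all libraries drawn down to the smallest total, the log2 difference of Psmb9 was 0.13 (edgeR adjusted p = 0.517), and with no filter beyond 1 count in total that of Psmb10 was -0.20 (adjusted p = 0.267). Both calls were also lost without single libraries: without unstimulated sample 1 the log2 difference of Psmb9 was 0.27 (adjusted p = 0.103), and that of Psmb10 was -0.21 without unstimulated sample 2 (adjusted p = 0.195), -0.27 without doubly stimulated sample 1 (0.103) and -0.25 without doubly stimulated sample 2 (0.125).

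Compared with IFNα alone, the doubly stimulated cells had less of the 3 catalytic subunits and more PA28β. Psmb9 was a down-regulated DEG (log2 fold change -1.02 ± 0.12, edgeR adjusted p = 1.90e-09), against 25.5% of the genes tested, and Psme2 an up-regulated one (1.03 ± 0.12, adjusted p = 1.68e-09), against 18.7%. Both lie at the 2-fold threshold. Psmb9 was under it without unstimulated sample 3 (-0.97), IFNα sample 1 (-0.94), IFNα sample 3 (-0.99) or doubly stimulated sample 1 (-0.95), and Psme2 without IFNα sample 2 (0.94). At an adjusted p under 0.1 alone, 3 genes were lower (39.8% of all genes tested), among them Psmb10 at 0.540-fold (0.454 to 0.642) and Psmb8 at 0.590-fold (0.492 to 0.708), and 1 was higher (36.1%). Psme1 did not pass the test, with a fold of 0.952 (0.816 to 1.11).

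From these tests the order of levels can be read for each gene. Psmb9 ran in the order CpG, unstimulated, CpG plus IFNα and IFNα, and Psmb10 in the order CpG, CpG plus IFNα, unstimulated and IFNα. Each step passed the test, but that between the unstimulated and the doubly stimulated cells was lost for both genes under the settings just given. Psmb8 followed the order of Psmb10, but its 2 middle groups did not differ beyond their spread. For Psme1 the order was unstimulated, CpG, CpG plus IFNα and IFNα, and the upper 2 groups did not differ beyond their spread. For Psme2 the step from IFNα to CpG was not tested, although the ranges did not overlap.

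On the log2 scale, the effect of IFNα depended on CpG in opposite directions for Psmb9 and for PA28. The interaction, which is the log2 effect of IFNα in the presence of CpG minus that in its absence, was 0.73 ± 0.19 for Psmb9 (edgeR adjusted p = 0.0122), -0.73 ± 0.17 for Psme2 (adjusted p = 0.00418) and -0.57 ± 0.16 for Psme1 (adjusted p = 0.0206). At an adjusted p under 0.1, 1 of 5 genes had a higher log2 effect with CpG, against 5.84% of the genes tested, and 2 of 5 a lower one, against 7.58%. None of these differences exceeded 2-fold. Psmb8 (-0.22, 95% interval -0.60 to 0.16) and Psmb10 (-0.05, -0.43 to 0.32) did not pass, although Psmb8 did without IFNα sample 2 (-0.41, adjusted p = 0.0865). Psmb5 had a negative interaction as well (-0.76 ± 0.22, edgeR adjusted p = 0.0247). With all libraries drawn down to the smallest total, the calls of Psmb9 (0.70, adjusted p = 0.113) and Psme1 (-0.40, adjusted p = 0.229) were lost, as was that of Psme1 without unstimulated sample 3 (-0.48, adjusted p = 0.120). In mean CPM, by contrast, IFNα added less Psmb9 with CpG than without it (40.6 to 171, against 137 to 349). It also added less Psme1 (350 to 567, against 248 to 597), while Psme2 went from 718 to 1031, against 213 to 508.

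The balance of inducible and constitutive catalytic subunits was then measured within each library, as a ratio of UMI counts that does not depend on library size. Because the 2 genes of a pair may be captured differently, only changes in a ratio are compared. The Psmb9 to Psmb6 ratio was 1.03–1.27 in unstimulated samples, 2.03–2.35 with IFNα, 0.0789–0.127 with CpG and 0.359–0.486 with CpG plus IFNα, and no groups overlapped. The Psmb8 to Psmb5 ratio was 10.5–17.1, 10.4–14.7, 2.01–2.58 and 3.14–3.51 in the same order. The Psmb10 to Psmb7 ratio was 6.88–10.4, 13.6–21.7, 2.40–3.63 and 3.19–4.69. It rests on few Psmb7 counts, 12 to 26 UMIs per library without CpG.

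CpG lowered all 3 ratios, in cells with and without IFNα. Averaged over the 2 settings, its log2 effect was -2.29 for Psmb8 to Psmb5, -2.87 for Psmb9 to Psmb6 and -1.94 for Psmb10 to Psmb7, each with p = 0.005, the smallest value that this two-sided exact permutation test within settings can give (400 permutations). IFNα raised Psmb9 to Psmb6 by 1.51 (exact permutation p = 0.005) and Psmb10 to Psmb7 by 0.75 (p = 0.015), but its effect on Psmb8 to Psmb5, 0.25, did not pass (p = 0.155). Adjusted over the 6 tests, the exact permutation p-values were 0.0075 for the 3 effects of CpG and for IFNα on Psmb9 to Psmb6, 0.018 for IFNα on Psmb10 to Psmb7 and 0.155 for IFNα on Psmb8 to Psmb5. For Psmb8 to Psmb5 the effect of IFNα was -0.05 without CpG and 0.55 with it.

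Of the counts of all 6 catalytic genes, Psmb8, Psmb9 and Psmb10 held 80.9% ± 0.546 (SD, n = 3) in unstimulated cells and 85.1% ± 1.57 after IFNα. This share was 44.0% ± 4.37 after CpG and 56.6% ± 3.03 after CpG plus IFNα. The share of Psmb9 went from 14.9% in unstimulated cells to 4.13% with CpG and was 13.2% with CpG plus IFNα. That of Psmb6 went from 13.4% to 38.9% with CpG and was 30.4% with both stimuli. These shares are descriptions of mRNA counts, not of assembled proteasomes. As the 6 genes may be captured differently, a share can be compared between groups but is not the true share of transcripts.

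**Figure D3:**
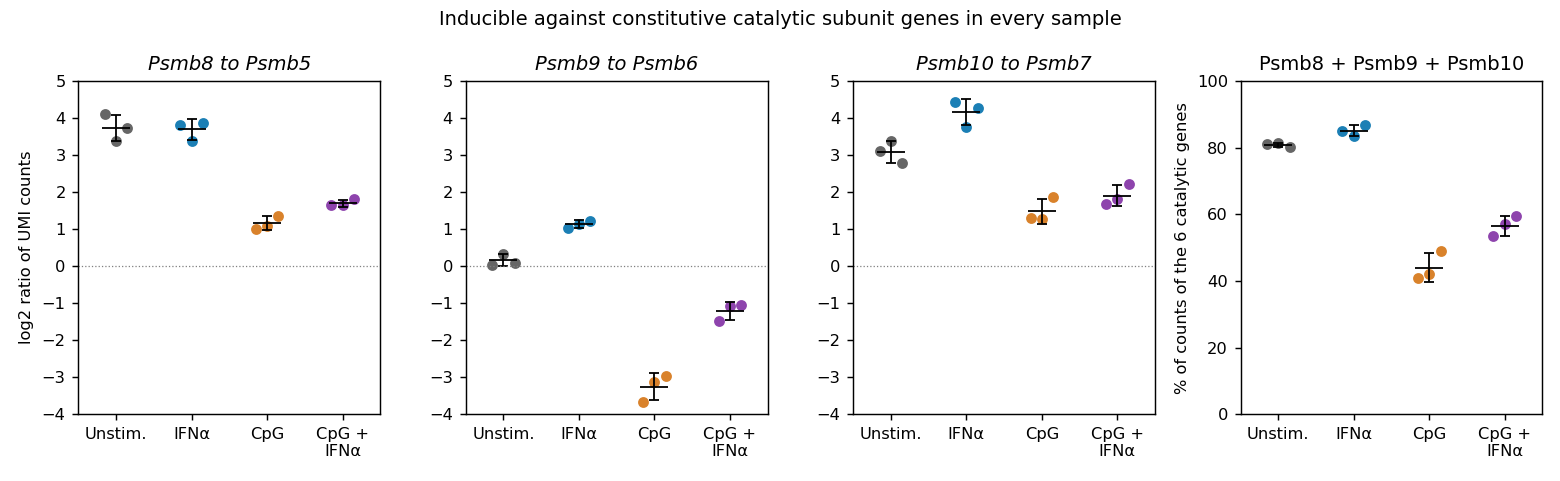
Log2 ratios of UMI counts of each inducible catalytic gene to its constitutive counterpart in the 12 samples (first 3 panels) and the percent of the counts of the 6 catalytic genes held by Psmb8, Psmb9 and Psmb10 (last panel, from 0 to 100%); points are samples, black bars the mean ± SD of 3. All samples with CpG lie below all samples without it in each panel.

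The PA28 subunits also changed relative to each other. The Psme2 to Psme1 count ratio was 0.721–0.964 in unstimulated samples and 0.801–0.934 with IFNα, against 2.02–2.08 with CpG and 1.75–1.90 with CpG plus IFNα. The ratio was thus higher in every sample with CpG than in every sample without it. No test was run on it. Psme2 has a retrocopy, Psme2b, on chromosome 11 (48945354–48946190), with its own row in the table, and reads could have been split between the 2 copies. Psme2b took 18.0–23.3% of their joint counts in unstimulated samples, 20.6–24.2% with IFNα, 6.78–8.46% with CpG and 7.34–8.52% with both stimuli. Its own level rose with IFNα (log2 fold change 1.41 ± 0.15, edgeR adjusted p = 3.14e-09) but did not pass the test with CpG (0.08 ± 0.16, adjusted p = 0.647).

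The rest of the proteasome rose with CpG and did not pass the test when IFNα was added to it. Of 11 other 20S core genes, 10 were up-regulated DEGs with CpG, against 20.1% of all genes tested (median log2 fold change 1.70, against -0.03 over all genes tested), with Psma6 having the smallest p (2.04 ± 0.12, edgeR adjusted p = 1.95e-16). All 18 genes of the 19S particle were up-regulated DEGs as well (median 1.51), led by Psmc5 (2.08 ± 0.13, adjusted p = 2.08e-15), and so were all 5 assembly factors (median 1.54), led by the chaperone gene Psmg3 (2.42 ± 0.19, adjusted p = 4.00e-13). When IFNα was added to CpG, 0 of these 34 genes passed an adjusted p of 0.1 in edgeR or DESeq2 and 1, Psmg4, did in limma voom, while 5, 6 and 6 had an unadjusted p under 0.05. The medians of the 3 lists were then 0.16, 0.13 and 0.09, against -0.04 over all genes tested. The genes of smallest p there were Psma4 (0.26 ± 0.11, edgeR adjusted p = 0.116), Psmd3 (0.27 ± 0.11, adjusted p = 0.128) and Psmg4 (0.37 ± 0.15, adjusted p = 0.110) on the higher side, and Psma6 (-0.08), Psmd13 (-0.25) and Psmg3 (-0.15) on the lower.

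IFNα alone raised most of the other 20S core genes by under 2-fold, and fewer genes of the other 2 lists passed the test. At an adjusted p under 0.1, where 12.4% of all genes tested were higher, 9 of 11 other 20S core genes were higher, led by Psma2 (log2 fold change 0.71 ± 0.11, edgeR adjusted p = 1.07e-05), with 6 of 18 genes of the 19S particle, led by Psmd4 (0.45 ± 0.13, adjusted p = 0.0139), and 2 of 5 assembly factors, led by Psmg4 (0.56 ± 0.21, adjusted p = 0.0581). Psmg2, at -0.40 ± 0.19 (adjusted p = 0.153), was the gene of smallest p with a lower value in these lists. No gene of these lists was called at over 2-fold. The medians of the 3 lists were 0.39, 0.28 and 0.24.

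Psme3 encodes PA28γ, the nuclear relative of PA28α and PA28β, Psme4 the activator PA200, and Psmf1 the inhibitor PI31. With CpG, Psme3 rose (log2 fold change 2.06 ± 0.12, edgeR adjusted p = 2.53e-16) and so did Psmf1 (1.06 ± 0.17, adjusted p = 2.00e-06), but Psme4 did not pass (0.03 ± 0.16). With IFNα alone, Psme4 and Psmf1 rose by 0.53 ± 0.16 (edgeR adjusted p = 0.0158) and 0.57 ± 0.18 (adjusted p = 0.0274), and Psme3 did not pass (0.15 ± 0.13). In the addition of IFNα to CpG 0 of the 3 passed in edgeR, DESeq2 or limma voom, also at an unadjusted p under 0.05, with edgeR values of -0.06 for Psme3, 0.10 for Psme4 and 0.14 for Psmf1.

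Most genes of peptide transport and class I loading were lower with CpG, and most were higher when IFNα was added to it. Of 11 such genes, 7 were down-regulated DEGs with CpG, against 25.5% of all genes tested, namely Tap1, Tap2, B2m, H2-K1, H2-D1, Tapbpl and Tapbp, which encodes the bridge between TAP and class I molecules and had the smallest p (log2 fold change -1.37 ± 0.11, edgeR adjusted p = 2.19e-12). The 3 that were higher at an adjusted p under 0.1, against 36.5% of all genes tested, were Erap1, Canx and Pdia3, of which Canx, an endoplasmic reticulum chaperone, had the smallest p (0.94 ± 0.11, adjusted p = 5.02e-09). When IFNα was added to CpG, 6 were up-regulated DEGs (2.95% of all genes tested) and 7 were higher at an adjusted p under 0.1 (6.54%), namely Tap1, B2m, H2-K1, H2-D1, Tapbp, Tapbpl and, under 2-fold, Tap2 (0.85 ± 0.14). The smallest p was that of Tap1. With IFNα alone 6 were higher (12.4% of all genes tested) and 1 (11.9%), Calr, was lower (-0.58 ± 0.15, edgeR adjusted p = 0.00393). When IFNα was added to CpG, Calr was at -0.16 and did not pass.

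Tap1, the divergent neighbour of Psmb9, had log2 fold changes of 1.38 ± 0.12 with IFNα, -1.59 ± 0.13 with CpG, 2.05 ± 0.13 when IFNα was added to CpG and 0.66 ± 0.17 for the interaction (edgeR adjusted p-values 2.68e-11, 2.33e-12, 1.00e-14 and 0.0115), beside 1.35, -1.75, 2.07 and 0.73 for Psmb9. Its mean level was 244.1 ± 30.3 CPM in unstimulated cells and 635 ± 3.79 CPM after IFNα, and it was 81.2 ± 7.51 CPM after CpG and 333 ± 44.0 CPM after both stimuli (SD, n = 3). Tap2, 2072 bases beyond Psmb8, fell by 1.39 ± 0.14 on the log2 scale after CpG, beside -0.54 ± 0.13 for Psmb8. On the other side of Psmb9, at 21756 bases, H2-DMb1, a class II peptide exchange gene, was at -1.001 ± 0.12 with IFNα, -4.81 ± 0.17 with CpG and -1.08 ± 0.31 when IFNα was added to CpG.

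Beside Psme2, 594 bases away, Rnf31, which encodes the ubiquitin ligase HOIP, rose with IFNα alone (log2 fold change 0.84 ± 0.20, edgeR adjusted p = 0.00208), as Psme2 did. It fell with CpG (log2 fold change -1.59 ± 0.26, edgeR adjusted p = 1.83e-06), where Psme2 rose, and rose when IFNα was added (0.90 ± 0.25, adjusted p = 0.0121). Dcaf11, 8057 bases from Psme1, was at 0.59 ± 0.16 with IFNα (adjusted p = 0.00775) and 0.31 ± 0.16 with CpG (adjusted p = 0.0834), and Emc9, between Psme1 and Psme2, had no more than 12 counts in any library. Around Psmb10, Pskh1 was at 0.27 ± 0.27 with IFNα and -0.91 ± 0.30 with CpG (adjusted p = 0.00819), and Dus2, 52892 bases away, fell with IFNα (-1.27 ± 0.28, adjusted p = 0.00102). The setting of strand in counting is not given in the sources used here. Psmb9 overlaps Tap1, Psme1 overlaps Emc9 by 14 bases, and Psmb10 lies within the antisense gene Gm16156, which had 0 or 1 count per library; Psmb8 overlaps the antisense gene Gm20496 by 2139 bases, which was not analysed here.

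Most regulators known for these genes were lower with CpG. Of 7 regulators, 5 were down-regulated DEGs with CpG, against 25.5% of all genes tested: Irf1 (log2 fold change -4.91 ± 0.27, edgeR adjusted p = 1.04e-16), Stat2 (-3.49 ± 0.24), Irf2 (-2.41 ± 0.17), Nlrc5 (-1.63 ± 0.18) and Irf9 (-1.34 ± 0.16). IRF1 is known to drive Psmb9 and Tap1, NLRC5 is the transactivator of class I genes, and STAT2 and IRF9 are parts of the factor through which IFNα acts. Nfe2l1, which encodes the factor that induces constitutive proteasome genes, was the only one that rose (0.62 ± 0.14, edgeR adjusted p = 0.000272).

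When IFNα was added to CpG, 4 of the 7 were up-regulated DEGs, against 2.95% of all genes tested: Stat2 (log2 fold change 3.33 ± 0.23), Irf1 (2.77 ± 0.33), Nlrc5 (2.35 ± 0.16) and Irf9 (2.21 ± 0.14, the smallest edgeR adjusted p, 3.28e-14). Irf2 stayed at -0.08 ± 0.18, and Irf8 was lower (-0.29 ± 0.11, adjusted p = 0.0763). With IFNα alone 5 were higher (12.4% of all genes tested), 3 of them over 2-fold (4.56%), led by Stat2 (2.78 ± 0.14, edgeR adjusted p = 1.86e-17), and Irf8 was lower (-0.51 ± 0.11, adjusted p = 0.000660). Whether these factors act on the 5 genes here was not tested.

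**Figure D4:**
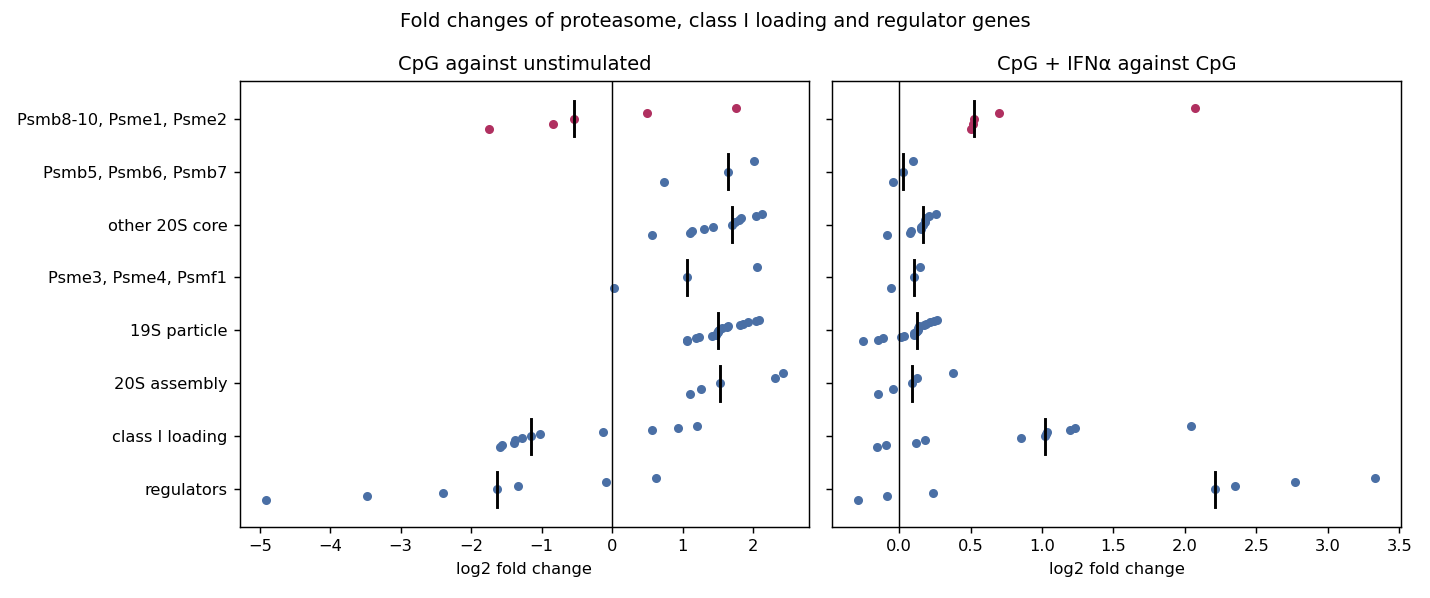
Log2 fold changes of single genes (points) and their median (black line) in the 5 genes, their constitutive counterparts and 6 lists of related genes, for CpG against unstimulated cells (left) and CpG plus IFNα against CpG (right); the 2 axes differ in scale. Proteasome lists centre on 1.70, 1.51 and 1.54 at the left and near 0 at the right, whereas class I loading genes and regulators centre on -1.15 and -1.63 at the left and on 1.02 and 2.21 at the right.

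Pearson's r of log2 CPM was 0.91 to 0.96 among Psmb8, Psmb9 and Psmb10 over the 12 samples. Psme1 had r of 0.49, 0.54 and 0.33 with these 3. Psme2 had r of -0.17, -0.14 and -0.36 with them, 0.72 with Psme1, and 0.93 and 0.90 with the constitutive Psmb5 and Psmb6. These values describe 12 samples that fall into 4 groups, so they reflect the group means. Of all genes tested, those most like Psmb9 were Ifi27l2a, Tap1 and Cybb (all r = 0.99), and those most like Psmb8 were Psmb10 (0.96), Rnf114 and Keap1 (both 0.95). Psmb10 was most like Tspo (0.98), Mndal and Ifi203 (both 0.97), Psme1 like Ms4a4b (0.98), Bst2 and Capza2 (both 0.95), and Psme2 like Tomm70a (0.99), Ssbp1 and Ms4a6d (both 0.98).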

How the data were processed

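The deposited table held whole UMI counts per gene, which the authors made from bulk RNA barcoding libraries of 12 samples. The submitters' processing notes name UMI-tools 1.1.2, Trim Galore 0.6.7, HISAT2 2.2.1, featureCounts 2.0.1 and GRCm38. The annotation release and strand setting are not given in the sources used here. The 5 genes, the reference genes and the gene lists were chosen with earlier results of these data known. The genes named from each list were those with the smallest p in each direction, with the nearest tested gene on each side of the 5 genes and the 3 genes most correlated with each.

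Counts were filtered with filterByExpr, scaled by TMM and fitted in edgeR 4.0.16 (R 4.3.3) with 4 groups of 3 samples. All 22561 identifiers matched GENCODE M21, which gave the positions. Intervals are 95% and cover the spread between samples; the deposited barcode list numbers the samples WT1 to WT3 in each group without saying whether a number is a mouse, so this spread may be technical. Replicates differed by more than sampling noise (chi-square per degree of freedom 1.90 to 6.31). Alternatives were limma 3.58.1, DESeq2 1.42.0, other scalings and filters, and each sample left out. Ratios were tested by exact permutation in NumPy 2.4.6. The fit was also run on simulated counts, whose outcome is not given here and on which no result above rests. Items withheld for evaluation are not reported here.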

Additional observations from a re-analysis of the deposited data

Results flagged for a closer look

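Among the 5 genes, their 3 constitutive counterparts, Tap1 and Tap2, 5 passed the edgeR interaction test. In these IFNα had a log2 effect of another size in the presence of CpG than in its absence. Of all genes tested, 5.84% had a higher and 7.58% a lower log2 effect with CpG. The difference in log2 effect was 0.73 for Psmb9 (adjusted p = 0.0122) and 0.66 for Tap1 (adjusted p = 0.0115), and it was -0.57 for Psme1 (adjusted p = 0.0206), -0.73 for Psme2 (adjusted p = 0.00418) and -0.76 for Psmb5 (adjusted p = 0.0247). In Psmb9 the 3 samples with CpG plus IFNα were each above the 3 with CpG alone, as the IFNα samples were above the unstimulated ones, so the sign of the effect was the same in both settings and its size differed. For Psmb5, the log2 effect of IFNα was 0.71 without CpG and -0.04 with it. Other proteasome, class I loading and regulator genes passed the edgeR test too: Irf1 (2.01, adjusted p = 0.000567), Nlrc5 (0.90, 0.00592) and Tapbp (0.43, 0.0752) with a higher effect in the presence of CpG, and Psme2b (-0.80, 0.00955), Psma6 (-0.58, 0.0181), Psma2 (-0.52, 0.0227), Irf2 (-0.75, 0.0375) and Psmg3 (-0.73, 0.0834) with a lower one.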

How the results depend on the processing

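Of 595 values of the 30 fold changes under other settings, 574 kept their direction and their side of an adjusted p of 0.1. The 2-fold threshold was not part of this count. Of the rest, 9 no longer passed, 1 newly passed and 11 reversed. Reversals concerned only fold changes that had not passed the test. With no filter beyond 1 count in total, Psmb8 in CpG plus IFNα against unstimulated was 0.0822, Psme1 in CpG plus IFNα against IFNα 0.0448 and the interaction of Psmb10 0.00412; scaled by library size only, the last was 0.0282. Leaving out single samples gave -0.0854 to 0.0331, -0.124 to 0.0657 and -0.166 to 0.0427 for these 3.

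The number of the 5 genes called moved with the fold threshold. With no minimum fold change it was 5 for IFNα, 5 for CpG, 4 for CpG plus IFNα, 5 for CpG plus IFNα against CpG, 4 against IFNα and 3 for the interaction. With a log2 fold change over 2 it was 0, 0, 1, 1, 0 and 0 in the same order. Against IFNα it was 1 by library size only, with no filter, or fitted on the 2 groups alone, and 1 to 2 when single samples were left out.

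Ratio effects in 1 setting alone rest on 3 against 3 samples, where the smallest exact permutation p is 0.1. For IFNα without and with CpG they were -0.0464 (reversed) and 0.55 for Psmb8 to Psmb5, 0.98 and 2.05 for Psmb9 to Psmb6, and 1.07 and 0.43 for Psmb10 to Psmb7. For CpG without and with IFNα they were -2.58 and -1.99, -3.41 and -2.34, and -1.61 and -2.26. The inducible share with both stimuli was 53.5% after thinning of all libraries to the smallest total.

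Samples of the same number correlated at -0.07 to 0.20 in their deviations, over 0.1 in 5 of 18 pairs, against -0.20 to 0.06 and 0 of 36 pairs for different numbers. The 5 pairs over 0.1 were all between stimulated groups, whereas same-number pairs with an unstimulated sample lay at -0.07 to 0.05. The same WT numbers recur in each group of the deposited barcode list, but no source says that a number marks 1 mouse. The main fit therefore did not pair samples, and whether the stimulated samples are paired is not known. With a replicate block the genes called numbered 3, 2, 2, 1, 2 and 0 over the 6 comparisons, and no call changed. Counts of 12 to 97 UMIs limit the ratios with Psmb7. Whether CpG was dosed alike in both groups, and whether unstimulated cells were cultured, limits the comparisons that use them. The cause of these changes was not tested.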
